A study of Mus musculus and synthetic construct with 3 samples.

Results

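The genes described here are 5 members of the renin-angiotensin system, namely Agt, Ace, Enpep, Agtr1a and Agtr1b, out of 32285 genes counted on a Seq-Scope array that carried sections of mouse abdominal aorta. They were picked from the gene table by symbol. In this system, the protein angiotensinogen, made by Agt, is cut by renin to angiotensin I, and the enzyme ACE trims angiotensin I to angiotensin II (AngII). AngII acts on vessels mainly through the AT1 receptor, which mice carry as a pair of genes, Agtr1a and Agtr1b, and aminopeptidase A, made by Enpep, trims AngII further. Liver is the main source of circulating angiotensinogen, endothelium is the best known site of ACE in vessels, and smooth muscle is a main site of the AT1 receptor in the arterial wall.

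Male Apoe-/- mice on a normal diet received AngII from subcutaneous minipumps for 4 weeks, and 3 of the 5 AngII mice developed an abdominal aortic aneurysm (AAA). The labels give their age as 16 weeks and the dose as 1000 ng/ml, and the study's methods differ from the labels on both the age and the unit of the dose. Control mice were of the same genotype, sex, age and diet, and received saline for the same time. Each block held 1 AAA and 1 control aorta from the stretch above the renal arteries, for 3 mice of each kind, and 10 sections per condition, each 10 μm thick, were laid on a single lane of the array. All AAA mice had both the infusion and an aneurysm, so the infused peptide and the disease cannot be told apart. Apoe deficiency was shared by both groups.

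Exonic UMIs (unique molecules that matched exons) were summed over all barcodes in the sections of a mouse. AAA mice had 969994, 444080 and 660347 UMIs, and control mice had 174333, 153843 and 197404. Density was 50826 to 71859 UMIs per mm2 in AAA mice, 30224 to 35063 in control mice and 14150 in the gaps between sections, so RNA lay outside the tissue outlines too. All 8 smooth muscle markers were detected, as the labelled tissue calls for, but the make-up of the sections differed between the groups. By edgeR, 7 of 8 smooth muscle markers were lower in AAA, and 7 of 8 macrophage markers and 4 of 8 fibroblast markers were higher. In CPM (UMIs per 1000000 exonic UMIs of the mouse or group of sections), smooth muscle markers summed to 10748 to 12911 in AAA mice and 15542 to 20091 in control mice, and macrophage markers to 4256 to 5731 in AAA mice and 2570 to 3060 in control mice. In such sums, fewer cells of a type and less RNA per cell cannot be told apart.

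All 5 genes were found, at very different depth. Over both conditions the sections held 267 exonic UMIs of Ace, 224 of Agt, 66 each of Enpep and Agtr1a, and 9 of Agtr1b. In CPM per kb of exon, Agt was the most abundant in AAA mice at 46.3 ± 3.39, followed by Ace at 19.4 ± 2.34, Agtr1a at 9.86 ± 1.01, Enpep at 5.10 ± 0.347 and Agtr1b at 1.25 ± 0.741 (SD, n = 3). No neighbors in this order overlapped among the AAA mice. In control mice Agt had 41.6 ± 5.98 and Ace 19.5 ± 5.74, and these levels did not overlap, whereas Enpep (6.29 ± 3.09), Agtr1a (5.78 ± 5.02) and Agtr1b (3.80 ± 3.31) did (SD, n = 3). Length scaling assumes reads over the whole exon length, which oligo-dT capture may not give.

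**Figure D1:**
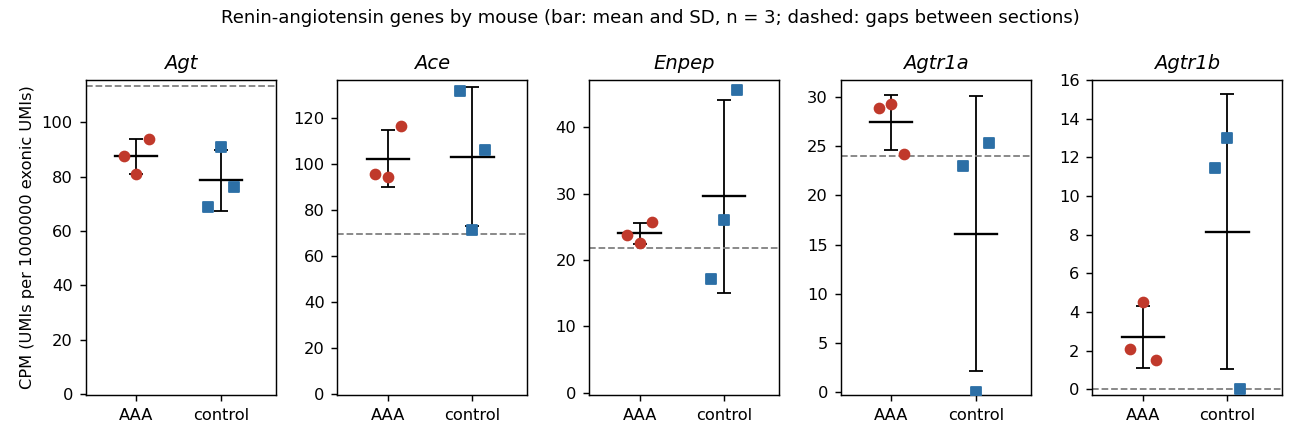
CPM of each gene in the 3 AAA mice (red circles) and the 3 control mice (blue squares), with mean and SD as bars and the level in the gaps between sections as a dashed line. AAA and control mice overlap for all 5 genes, and Agt lies below its level in the gaps (113 CPM) in every mouse.

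None of the 5 genes passed the test between AAA and control. Of all genes tested by edgeR's quasi-likelihood test (6384, Benjamini-Hochberg adjusted p under 0.05), 2.29% were called, with 1.07% higher and 1.22% lower in AAA. Only Agt and Ace had the counts to enter that test. Enpep, Agtr1a and Agtr1b did not pass its filter on low counts and are too rare to compare with exonic counts. AAA and control mice overlapped for each of the 5 genes, whereas 16.9% of genes tested had groups that did not overlap. With 3 mice in each group the smallest two-sided exact permutation p is 0.1.

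Agt (ENSMUSG00000031980), the gene of the precursor of all angiotensins, lies on the minus strand at chr8:124556534-124569706 in GRCm38. It had 85, 36 and 62 UMIs in AAA mice 1, 2 and 3, against 12, 14 and 15 in control mice 1, 2 and 3. In CPM this came to 87.6, 81.1 and 93.9 in AAA mice and 68.8, 91.0 and 76.0 in control mice. Control mouse 2 lay within the range of the AAA mice, and the other control mice lay below it. The means were 87.5 ± 6.41 in AAA and 78.6 ± 11.3 in control (SD, n = 3 each, exact permutation p = 0.3). The log2 fold change was 0.17 ± 0.25 (SE), with an interval of -0.33 to 0.68 and an adjusted p of 0.876 by edgeR. The values cannot tell changes inside that interval from no change. The interval is not a limit of detection. On simulated data the same test found 48.3% of genes given a log2 change of 1. That share is over tested genes of all depths and is not a value for Agt.

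The Agt transcript was not concentrated in the sections. It took 88.2 CPM over all AAA sections and 78.0 over all control sections, against 113 in the gaps between the first and the last section (52 UMIs). The ratio to the gaps was 0.779 in AAA sections (95% interval for counting error 0.570 to 1.08) and 0.689 in control sections (0.446 to 1.06). Per area Agt was denser on the sections, at 5.43 UMIs per mm2 in AAA and 2.59 in control, against 1.60 in the gaps. Albumin (Alb), a hepatocyte gene, also lay below its level in the gaps, at 8733 CPM in AAA sections, 9186 in control sections and 9460 in the gaps. Its ratios to the gaps, 0.923 in AAA and 0.971 in control sections, were nearer to 1 than those of Agt. A low ratio in AAA sections was not particular to hepatocyte genes. Smooth muscle markers had 0.787 there, but 1.265 in control sections. The 8 hepatocyte markers together took 17980 to 19378 CPM in AAA mice and 18085 to 22529 in control mice, and none of them passed the test between the groups. All 8 were detected. The part of such spread RNA in the Agt values was not tested.

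Ace (ENSMUSG00000020681), the gene of the enzyme that makes AngII from angiotensin I, lies on the plus strand at chr11:105967945-105989964. It had 93, 42 and 77 UMIs in AAA mice 1, 2 and 3, against 23, 11 and 21 in control mice 1, 2 and 3, or 95.9, 94.6 and 117 CPM in AAA mice and 132, 71.5 and 106 in control mice. Control mice thus held both the highest and the lowest value. The means were 102 ± 12.4 in AAA and 103 ± 30.3 in control (SD, n = 3 each, exact permutation p = 1.0). By edgeR the log2 fold change was -0.03 ± 0.24 (SE), with an interval of -0.50 to 0.45 and an adjusted p of 0.984. Its sign turned when AAA mouse 1, AAA mouse 2, control mouse 1 or control mouse 3 was left out (range -0.20 to 0.19) and without the filter on low counts (0.11), and no such fit passed the test.

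Of the 5 genes, Ace was the one whose share in AAA sections had a counting interval above the gaps. Its share was 102 CPM in AAA sections and 105 in control sections, against 69.7 in the gaps (32 UMIs). The ratio to the gaps was 1.47 in AAA sections (95% interval 1.01 to 2.20) and 1.50 in control sections (0.954 to 2.40). These intervals cover counting error only, and both ratios share the same gaps. The lower limit in AAA sections was close to 1. The 212 UMIs there lay on 198 barcodes, so they may not all be independent counts. An antisense gene overlaps an exon of Ace on the opposite strand, and whether the counting used strand is not given in the sources used here.

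Enpep (ENSMUSG00000028024), the gene of aminopeptidase A, lies on the minus strand at chr3:129269175-129332720. It had 23, 10 and 17 UMIs in AAA mice 1, 2 and 3, against 3, 4 and 9 in control mice 1, 2 and 3. The CPM were 23.7, 22.5 and 25.7 in AAA mice and 17.2, 26.0 and 45.6 in control mice. The AAA mice lay close together and inside the range of the control mice (exact permutation p = 0.7). The pooled share in AAA was 0.792 of that in control, with an interval of 0.443 to 1.49. In the gaps Enpep took 21.8 CPM, and the ratio to the gaps was 1.11 in AAA sections (0.555 to 2.45) and 1.40 in control sections (0.596 to 3.45).

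**Figure D2:**
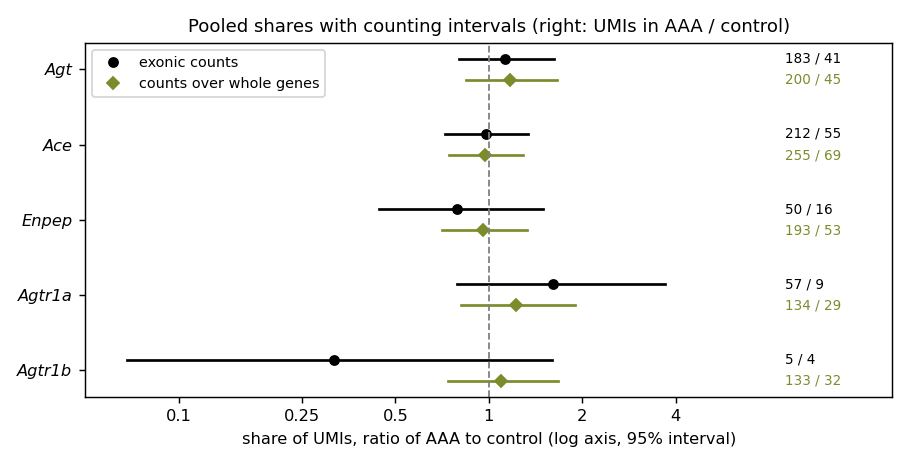
Share of UMIs in AAA over that in control for each gene, on a log axis with 95% intervals for counting error, from exonic counts (black) and from counts over whole genes with introns (green), with the UMIs of AAA and control at the right. All intervals include 1, and the widest is that of exonic Agtr1b, which rests on 5 UMIs in AAA and 4 in control.

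Agtr1a (ENSMUSG00000049115), the main AT1 receptor gene of mouse vessels, lies on the plus strand at chr13:30336441-30382867. It had 28, 13 and 16 UMIs in AAA mice 1, 2 and 3, against 4, 0 and 5 in control mice 1, 2 and 3. In CPM this was 28.9, 29.3 and 24.2 in AAA mice and 22.9, 0 and 25.3 in control mice. AAA mouse 3 lay below control mouse 3, so the groups overlapped (exact permutation p = 0.2). The count of 0 in control mouse 2 allows up to 19.5 CPM. The pooled ratio of AAA to control was 1.60 (0.789 to 3.69), and at the AAA share 14.4 UMIs would have been counted in control sections in place of 9. The ratio was 1.93 without control mouse 1, 1.13 without control mouse 2 and 2.25 (0.834 to 8.56) without control mouse 3. In the gaps Agtr1a took 24.0 CPM, and the ratio to the gaps was 1.15 in AAA sections (0.595 to 2.43) and 0.715 in control sections (0.262 to 1.90).

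Every AAA section had an Agtr1a UMI, from 1 to 12 with a median of 6. Of the 10 control sections 5 had one, with a median of 0.5 and at most 4. AAA sections held more UMIs of all kinds, and in CPM the AAA sections ran from 4.21 to 52.0 (median 28.3) and the control sections from 0 to 92.4 (median 7.32). The highest CPM was therefore in a control section, with 4 UMIs. Sections of a mouse are not independent, and no test was made over them.

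Agtr1b (ENSMUSG00000054988), the second AT1 receptor gene, lies on the minus strand at chr3:20314473-20367177. It had 2, 2 and 1 UMIs in AAA mice 1, 2 and 3, against 2, 2 and 0 in control mice 1, 2 and 3. The pooled ratio of AAA to control was 0.317, with an interval of 0.0682 to 1.60 (exact permutation p over mice = 0.4). Without control mouse 3, which had no UMI, it was 0.198 with an interval of 0.0426 to 0.997, for counting error only. No UMI of it was counted in the gaps, which allows up to 6.53 CPM there. All of this rests on 9 UMIs.

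The pair of receptor genes have coding sequences of the same length, 1077 bases, which differ at 99 bases and are 90.8% identical (GENCODE vM21 transcripts, GRCm38). The last 60 coding bases are shown because they hold 10 of those differences close together and show how the copies can be told apart. Capitals mark the bases that differ.
Agtr1a: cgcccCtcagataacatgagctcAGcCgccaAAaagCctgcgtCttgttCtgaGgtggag
Agtr1b: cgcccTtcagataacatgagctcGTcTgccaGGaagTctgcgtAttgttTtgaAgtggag
The longest run of bases that both coding sequences share exactly is 66, and after the stop codon it is 16. A coding read longer than that run spans at least 1 base that differs. How the counting treated reads that match both genes is not given in the sources used here.

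Most UMIs of the rarer genes lay outside exons. The same held over all kept genes, for which the sections had 2600001 exonic UMIs out of 5981099 whole-gene UMIs. With counts over whole genes, introns included, Agtr1b had 165 UMIs in place of 9, Enpep 246 in place of 66, and Agtr1a 163 in place of 66, whereas Ace had 324 in place of 267 and Agt 245 in place of 224. Exonic UMIs made up 5.45% of the whole-gene UMIs of Agtr1b, 26.8% of those of Enpep and 40.5% of those of Agtr1a, but 82.4% of those of Ace and 91.4% of those of Agt. Scaled by length, the non-exonic UMIs ran from 1.86 per kb of intron for Agt to 3.41 for Ace, a narrow range beside that of the exonic UMIs, which ran from 4.19 per kb of exon for Agtr1b to 118 for Agt. For Agtr1b the exonic density (4.19 per kb) was near its own intron density (3.09 per kb).

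With whole-gene counts all 5 genes entered the edgeR test and none passed, beside 0.835% of the 12930 genes tested. Agtr1b had 57, 25 and 51 whole-gene UMIs in AAA mice and 13, 11 and 8 in control mice, and its log2 fold change was 0.14 with an interval of -0.46 to 0.75 (adjusted p = 0.951 by edgeR). Agtr1a had 73, 31 and 30 in AAA mice and 12, 5 and 12 in control mice, with a log2 fold change of 0.29 (-0.36 to 0.93, adjusted p = 0.884 by edgeR). Enpep had 95, 42 and 56 in AAA mice and 8, 15 and 30 in control mice, with a log2 fold change of -0.05 (-0.56 to 0.47, adjusted p = 0.985 by edgeR). For these 3 genes the interval included no change. On this scale the groups did not overlap for 1 of the 5 genes, Agt, beside 13.9% of the 12930 genes. It had 43.8, 39.6 and 41.8 CPM of whole-gene UMIs in AAA mice and 32.6, 39.4 and 36.0 in control mice (exact permutation p = 0.1, the smallest possible). Its lowest AAA mouse and highest control mouse were nearly level, and its edgeR adjusted p was 0.869.

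**Figure D3:**
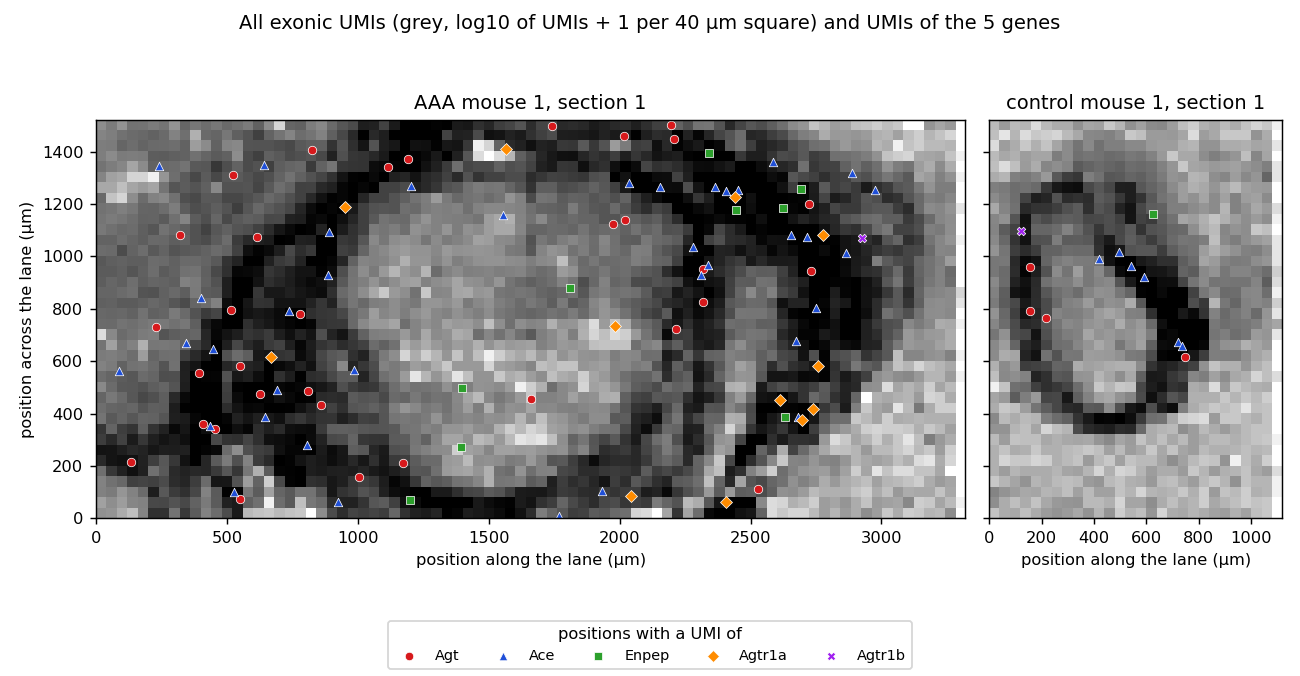
Exonic UMIs of all genes (grey, log10 of UMIs + 1 per 40 μm square) over section 1 of AAA mouse 1 (left) and section 1 of control mouse 1 (right), with the positions of UMIs of the 5 genes as colored symbols and axes in μm. The AAA section has 40 UMIs of Ace and 33 of Agt, on the dense ring, in its sparser center and outside it, and the smaller control section has 6 of Ace and 4 of Agt.

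Within sections, barcodes were grouped into hexagons with 12 μm sides, and the share of a gene's UMIs in hexagons that also held a smooth muscle marker UMI was set beside the share of all other UMIs there. In AAA sections these hexagons held 35.0% of Agt (exact binomial 95% interval 28.1 to 42.4), 39.2% of Ace (32.5 to 46.1), 42.0% of Enpep (28.2 to 56.8) and 29.8% of Agtr1a (18.4 to 43.4), against 38.4% of all other UMIs. Each of these intervals included the share of all other UMIs. Agtr1b had 2 of 5 UMIs there in AAA sections and 4 of 4 in control sections (39.8 to 100). Those 4 UMIs lay on only 3 barcodes, so they may not be independent counts, although the interval takes them as such. In control sections the hexagons held 36.6% of Agt (22.1 to 53.1) and 27.3% of Ace (16.1 to 41.0), against 36.1% of all other UMIs. In AAA sections, the list without Acta2 and counts over whole genes kept each difference within its interval. The Agtr1b share in control sections did not hold. Without Acta2 it was 2 of 4 UMIs (6.76 to 93.2), against 24.98% of all other UMIs. With whole-gene counts it was 12 of 32 (37.5%, 21.1 to 56.3), against 39.2%. Both intervals included the share of all other UMIs, unlike 39.8 to 100 with the full list and exonic counts.

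Fibroblast hexagons held 50.9% of Agtr1a (37.3 to 64.4) in AAA sections, against 44.3% of all other UMIs, and 1 of its 9 UMIs in control sections, against 23.5% of all other UMIs. By mouse the Agtr1a share was above that of other UMIs in AAA mice 1 and 2 and below it in AAA mouse 3. Endothelial hexagons held 6.13% of Ace (13 of 212 UMIs, 3.30 to 10.3) in AAA sections, against 3.36% of all other UMIs. That interval only just included 3.36%, and in control sections 1 of 55 Ace UMIs (1.82%) lay in such hexagons, against 1.72% of all other UMIs. By mouse the endothelial share of Ace was 7.53%, 7.14% and 3.90% in AAA mice 1, 2 and 3, beside 4.24%, 2.82% and 2.45% of all other UMIs. It was higher than the share of other UMIs in 3 of 3 AAA mice, but on only 7, 3 and 3 UMIs. Control mice 1, 2 and 3 had 1, 0 and 0 Ace UMIs in such hexagons. Counts this low cannot settle a difference in any 1 mouse. Macrophage hexagons held 23.5% of Agt (17.6 to 30.3) and 12% of Enpep (4.53 to 24.3) in AAA sections, against 20.4% of all other UMIs. In control sections they held 4.88% of Agt and 12.5% of Enpep (2 UMIs each), against 7.72% of all other UMIs, so neither gene lay on the same side of the other UMIs in both conditions. Macrophage markers were themselves higher in AAA, and their part in these shares was not tested. Hepatocyte hexagons held 57.9% of Agt (50.4 to 65.2) in AAA sections, against 55.4% of all other UMIs. In control sections they held 36.6% of Agt (22.1 to 53.1), against 40.1% of all other UMIs.

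**Figure D4:**
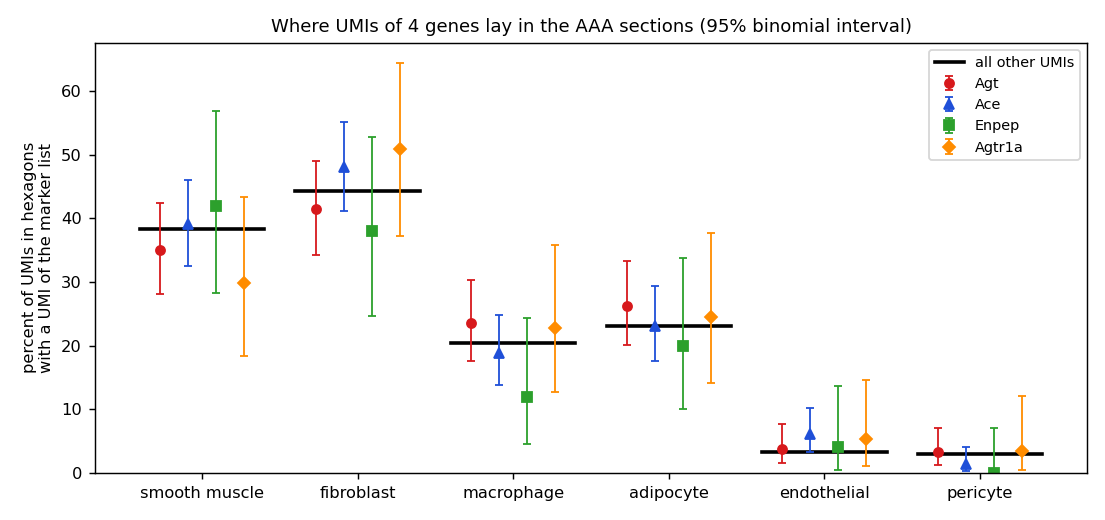
Percent of the UMIs of Agt, Ace, Enpep and Agtr1a in the AAA sections that lay in hexagons with a UMI of each marker list (symbols with exact binomial 95% intervals), beside the percent of all other UMIs in the same hexagons (black bars). Every interval includes its black bar, and Ace in endothelial hexagons (6.13% against 3.36%) comes closest to leaving it.

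The UMIs of these genes were scattered. In AAA sections the 212 UMIs of Ace lay in 198 hexagons and the 183 of Agt in 181, with at most 2 and 3 in a hexagon. No hexagon held UMIs of 2 of the 5 genes. Over both conditions Agt lay in 222 hexagons and Ace in 251. Hexagons with 10 or more UMIs numbered 52702 in AAA and 16343 in control, so a count of 0 says little. In hexagons with Enpep, adipsin (Cfd), an adipocyte gene, had 30 UMIs against 11.1 expected from the UMIs there, a ratio of 2.71 and the highest for Enpep among genes with 10 or more UMIs in those hexagons. Adipocyte hexagons as a group nevertheless held 20.0% of Enpep and 23.1% of all other UMIs. In hexagons with Ace the leading gene was Aldh1a1, a retinaldehyde dehydrogenase (12 UMIs against 5.48 expected), followed by Pls3, Sod3, Aebp1 and Calr. With Agt it was Cotl1, an actin-binding protein (11 against 3.33), followed by Mfap4, Rpl4, Col14a1 and Rpl10a, and with Agtr1a the leading genes included Hp, haptoglobin (10 against 5.25), Ctsd, Rps13 and Tpt1. These are leading genes among 626 compared, on 10 to 30 UMIs each, and are given as a description.

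Across the 6 mice, the genes whose levels followed Agt most closely were Lemd2, Pes1 and Tbc1d17 (Pearson r from 0.968 to 0.983), and those that followed Ace were Mrpl12, Cth and Fbxo28 (0.983 to 0.997). With 6384 genes compared over 6 mice, these are a description.

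Other enzymes and receptors of the system were read from the same fit. Of 23 on the list, 22 are among the counted genes and 10 had the counts for a test, of which 1 was higher and 0 were lower in AAA, beside 1.07% higher and 1.22% lower over all genes tested. The median log2 fold change was 0.18, beside -0.01 over all genes tested. The gene that rose was Ctsd, cathepsin D, a lysosomal protease that can release angiotensin I in vitro and is abundant in macrophages. It had 1484, 1763 and 2122 CPM in AAA mice, against 975, 982 and 1094 in control mice. The groups did not overlap, and the log2 fold change was 0.81 ± 0.12 (SE, adjusted p = 1.946e-05 by edgeR). Macrophage markers rose in the same mice, and their part in this was not tested.

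The other genes of highest count on that list did not pass. Ctsa, cathepsin A, a lysosomal carboxypeptidase, had 290, 245 and 323 CPM in AAA mice and 178, 221 and 304 in control mice (log2 fold change 0.28, adjusted p = 0.573 by edgeR). Atp6ap2, the (pro)renin receptor, had 159, 167 and 147 in AAA mice and 143, 117 and 127 in control mice (0.28, adjusted p = 0.683 by edgeR). Renin itself was nearly unseen in the wall, with 1 exonic UMI of Ren1 in AAA sections and 0 in control sections, which allow up to 5.71 CPM there. Agtr2, the AT2 receptor, had 4 UMIs in AAA and 2 in control, and Mas1, a receptor for angiotensin 1-7, had 1 in AAA and 1 in control. Chymase-type proteases of mast cells can also form AngII. Cma1 had 12 UMIs in AAA and 5 in control, Mcpt4 had 17 in AAA and 5 in control, and Ctsg had 0 in both. All of these were too rare to compare.

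**Figure D5:**
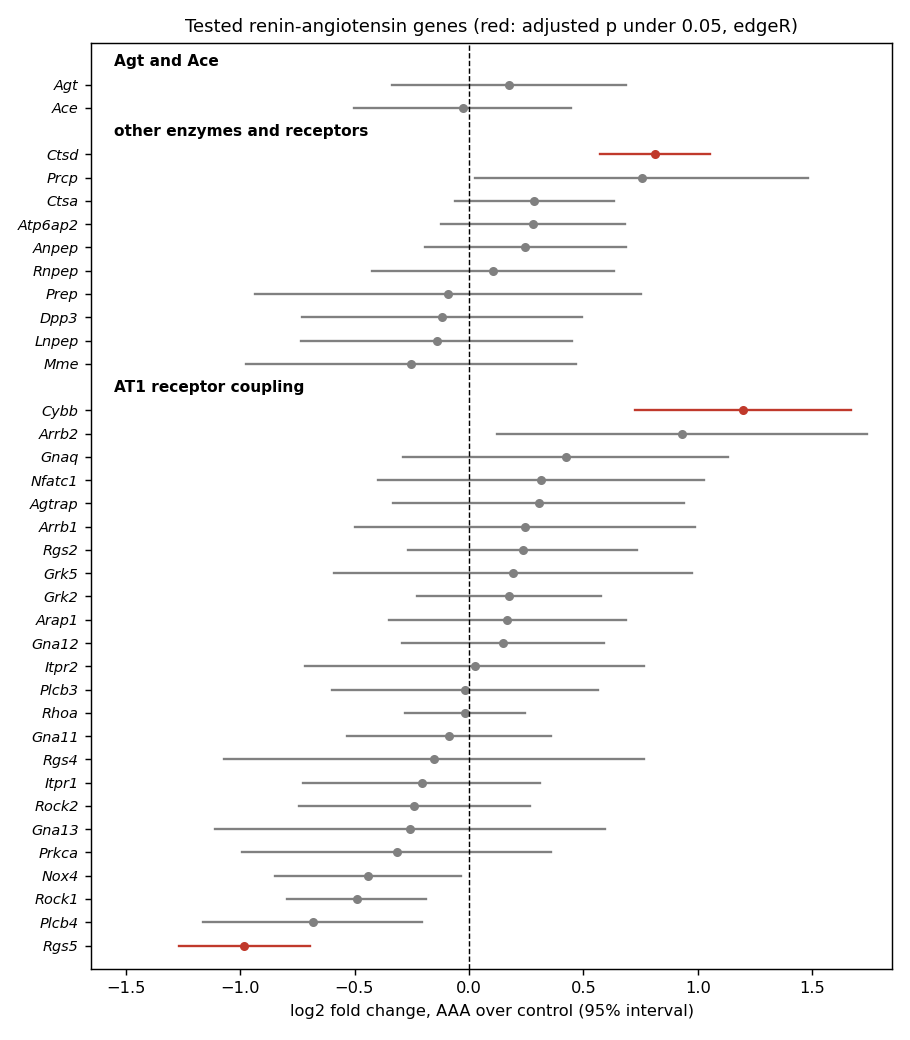
Log2 fold change of AAA over control with 95% intervals for every tested gene of the system, by edgeR, for Agt and Ace (top), the other enzymes and receptors (middle) and genes of AT1 receptor coupling (bottom), with those of adjusted p under 0.05 in red. Ctsd (0.81) and Cybb (1.20) lie to the right and Rgs5 (-0.98) to the left, and Agt and Ace lie near 0.

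Genes that couple or regulate the AT1 receptor could be tested more often. Of 27 on the list 24 were tested, with 1 higher and 1 lower in AAA, beside 2.29% in either direction over all genes tested, and a median log2 fold change of 0.00, beside -0.01 over all genes tested. Rgs5, which shortens signaling of Gq and Gi proteins and is also a pericyte marker, fell to 388, 311 and 454 CPM in AAA mice, against 746, 592 and 942 in control mice. Its log2 fold change was -0.98 ± 0.14 (SE, adjusted p = 1.755e-05 by edgeR). Of the 4 tested pericyte markers it was the 1 that passed as lower, and their median log2 fold change was -0.43. The other pericyte markers summed to 157, 122 and 106 CPM in AAA mice and 138, 137 and 157 in control mice, which overlap. Smooth muscle markers were lower in the same mice, and the part of either cell type in the Rgs5 values was not tested. Cybb, the NADPH oxidase subunit of phagocytes, rose to 187, 155 and 229 in AAA mice, against 63.1, 111 and 81.1 in control mice (log2 fold change 1.20 ± 0.23 SE, adjusted p = 0.00134 by edgeR). Cybb rose alongside the macrophage markers, and their part was not tested.

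The remaining genes of highest count on that list were Rhoa and Rock1, the small GTPase and the kinase through which AT1 signaling reaches the contractile apparatus. Rhoa had 462, 466 and 463 CPM in AAA mice and 511, 488 and 415 in control mice (log2 fold change -0.02, interval -0.28 to 0.25, adjusted p = 0.984 by edgeR). Rock1 had 229, 218 and 224 in AAA mice and 338, 299 and 309 in control mice. Its groups did not overlap, but the log2 fold change of -0.49 ± 0.15 (SE) did not pass (adjusted p = 0.0814 by edgeR). It passed in 1 alternative, hexagons with 10 or more UMIs (-0.60, adjusted p = 0.0304 by edgeR), and in none of the other 13, where the adjusted p ran from 0.0634 to 0.574. Smooth muscle markers were lower in the same mice, and their part in the Rock1 values was not tested.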

How the data were processed

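Seq-Scope captures RNA with oligo-dT on a sequencing flow cell with barcodes of known position. The authors deposited UMI counts in 1 matrix that pools both aorta libraries and all 20 sections. The counts are not normalized, and per the submitters' processing notes they were made with STARsolo 2.7.5c on mm10. Exonic counts were used, and counts over whole genes as an alternative. Genes starting with mt or Gm (8551 genes, 11.7% of UMIs in sections) were removed, as in the study.

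The labels do not tie barcodes to sections. Windows along lane 2 were drawn by hand around the tissue outlines, and condition and mouse were taken from the order of the labelled stained sections in the study's supplementary figure, so every comparison rests on that order. Position units (26.6 per μm) were set from the lane size of 60 by 1.5 mm. Lane 1 and tissue before the first section were left out.

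UMIs were summed per mouse (3 AAA, 3 control), since sections and hexagons of a mouse are not independent, and compared by the quasi-likelihood test of edgeR 4.0.16 in R 4.3.3, with TMM scaling, the filterByExpr filter and Benjamini-Hochberg adjustment over all genes tested. Single values were compared by exact two-sided permutation over mice. SEs are the log2 fold change over the root of F, and 95% intervals of log2 fold changes follow from them. Intervals of pooled ratios are exact conditional ones, those of shares Clopper-Pearson, and both, like the 3 UMIs that a count of 0 allows, cover counting error only. On simulated data for this comparison (6384 genes, 200 changed) the step found 48.3% of the genes given a log2 change of 1 and 98.2% at a log2 change of 2. DESeq2 1.42.0, library size scaling, no filter, other count columns and barcodes, a replicate block and leaving out each mouse were tried.

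Coordinates are of GRCm38 (GENCODE vM21), in which 32235 of the 32285 gene IDs were found. Pathway genes named are those that passed and the 3 of highest count in each list. The few others were too rare to compare and were named after their values were seen. Genes alike over mice are the top 3 by Pearson r of log2 CPM, and those sharing hexagons the top 5 by observed over expected UMIs among genes with 500 or more UMIs and 10 or more in those hexagons. The genes and lists were chosen with earlier results of these data known. Results for some genes that these rules name are not reported here.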

Additional observations from a re-analysis of the deposited data

Results flagged for a closer look

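Among the 10 sections of a condition, 3 values lay apart from the rest by Dixon's criterion, out of 10 groups of sections examined. The criterion's chance rate of about 1 in 20 groups is for independent normal values. It does not hold for counts this low from sections that share mice. All rest on a few UMIs. Agtr1a had 92.4 CPM in section 3 of control mouse 1 (4 UMIs), with 47.2 in the next highest control section. Agtr1b had 14.6 CPM in section 1 of AAA mouse 2 (2 UMIs) and 36.4 in section 3 of control mouse 2 (2 UMIs), with 4.26 and 15.4 in the next highest sections of the same condition.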

How the results depend on the processing

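The number of genes called was 146 and fell to 74 with DESeq2 and to 68 with hexagons of 75 or more genes, where 1219 genes were tested. Leaving out each mouse gave 65 to 160, with 87 without control mouse 1 and 65 without control mouse 3. None of the 5 genes passed under any setting in which it was tested. With hexagons of 75 or more genes none of them could be tested, and the ratio of AAA to control was 0.78 for Agt and 1.38 for Ace. The log2 fold change of Ace was 0.11 without the filter on low counts, where the median of all genes was 0.18, and -0.20 to 0.19 without each mouse. That of Agt was 0.11 to 0.29 without each mouse. Without each mouse the ratio of AAA to control ran from 1.13 to 2.25 for Agtr1a and from 0.198 to 0.448 for Agtr1b. Enpep and Agtr1a entered the test only without a control mouse, with whole-gene counts or with no filter.

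With the pair as a replicate block, the log2 fold changes were 0.18 for Agt and -0.03 for Ace, and 191 genes were called (101 higher, 90 lower). Each block held 1 AAA and 1 control aorta, so the mice were paired by design. The correlations of deviations within pairs were 0.0367, 0.00846 and 0.0492, and those across pairs ran from -0.0454 to 0.0113. All of them were small, and the block changed no call of a named gene.

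The difference in CPM, AAA minus control, had the range -16.8 to 13.4 for Ace, -11.8 to 2.39 for Enpep, 4.03 to 15.1 for Agt, 3.32 to 16 for Agtr1a and -9.54 to -3.04 for Agtr1b without each mouse. That of Agtr1b was 2.13 with whole-gene counts. These permutations and the settings of pathway genes were added after the data were seen. Of those genes, Atp6ap2 turned to -0.25 with hexagons of 75 or more genes, where Cybb (1.13) did not pass. Rhoa turned to 0.12 with no filter and 0.14 with whole-gene counts, and without each mouse ran from -0.085 to 0.063. Ctsd and Rgs5 passed in every setting. Control mice, with 153843 to 197404 UMIs, limit the precision.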
